A study of Mus musculus with 8 samples.

Results

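NMDA receptors are glutamate-gated cation channels of neurons, and 6 of the genes that encode their subunits were followed here: Grin1, Grin2a, Grin2b, Grin2c, Grin2d and Grin3a. Every non-control probe of the array whose accession maps by RefSeq to one of these symbols was taken, whatever its values, which gave 9 probes out of 39429, for 6 of the 20144 genes named. Grin1, Grin2a and Grin2b had 2 probes each, and Grin2c, Grin2d and Grin3a had 1 each. Dissociated mouse hippocampal neurons, grown for 10 days, received a lentivirus carrying either Flag-Nr4a1, a tagged form of the activity-induced nuclear receptor, or GFP, and RNA was taken 6 days later. There were 4 arrays per group, joined by the labels into 4 pairs of 1 Nr4a1 and 1 GFP array, with replicates 1 to 3 in batch 1 and replicate 4 in batch 2. Each array carried the culture's RNA in Cy5 and a commercial mouse reference RNA in Cy3, without a dye swap. The labels give no mouse strain or age, no promoter for either transgene and no share of infected cells, and they do not say that the replicates were separate cultures, so the p-values below cover no more than the variation among these 8 arrays, which may be technical in origin.

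An NMDA receptor is built from obligatory GluN1 subunits (Grin1), which bind the co-agonist glycine or D-serine, and from GluN2 subunits, which bind glutamate. The GluN2 subunit sets how fast the channel closes and how strongly magnesium blocks it, and forebrain neurons are known for replacing GluN2B (Grin2b) in part by GluN2A (Grin2a) as they mature. GluN2C (Grin2c) is best known from cerebellar granule cells and is also made by some glia and interneurons, GluN2D (Grin2d) from early development and interneurons, and GluN3A (Grin3a) from young synapses, where it lowers calcium entry.

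The genes lie on different chromosomes of the GRCm38.p6 assembly. Grin1 spans chr2:25291177-25319187, Grin2a chr16:9567901-9996083 and Grin2b chr6:135713221-136173615. Grin2c spans chr11:115249169-115267297, Grin2d chr7:45831883-45871194 and Grin3a chr4:49661611-49846023. The scanner files give each probe's transcript accession and not its sequence, so the exon a probe lies in is not given here. RefSeq promoter windows were matched for Grin1, Grin2c and Grin2d, and the 250 bases before the transcript start that RefSeq's table uses are shown for Grin2c, whose transcript rose, and for Grin1, whose transcript was not called. Both lie on the minus strand and are written 5′ to 3′, with chr11:115267244-115267493 for Grin2c and chr2:25319188-25319437 for Grin1. The Grin2c gene span reaches 54 bases into its window, while the Grin1 window ends where its gene span begins. Capitals mark the letters of the motifs searched.
Grin2c: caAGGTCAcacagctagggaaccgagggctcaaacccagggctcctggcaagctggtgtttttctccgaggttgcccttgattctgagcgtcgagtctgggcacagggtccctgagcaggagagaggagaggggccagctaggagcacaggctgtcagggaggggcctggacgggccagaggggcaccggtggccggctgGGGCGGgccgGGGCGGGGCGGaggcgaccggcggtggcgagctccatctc
Grin1: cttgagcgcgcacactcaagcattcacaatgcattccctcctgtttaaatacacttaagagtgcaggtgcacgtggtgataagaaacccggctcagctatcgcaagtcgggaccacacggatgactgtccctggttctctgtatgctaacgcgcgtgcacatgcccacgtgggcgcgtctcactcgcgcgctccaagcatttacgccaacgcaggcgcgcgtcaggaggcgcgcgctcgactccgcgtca
Both strands were searched for AAAGGTCA, the site that NR4A receptors bind as monomers, for the half-site AGGTCA shared by many nuclear receptors and contained in it, for the cAMP response element TGACGTCA and for the Sp-family GC box GGGCGG. The Grin2c window held 1 half-site and 3 GC boxes (the last pair sharing a base), and it held 0 copies of the full NR4A site. All 3 GC boxes lie in the bases that fall inside the gene span. The Grin1 window held 0 copies of each of the 4 motifs. The Grin2d window also held 0, but it lies wholly inside the gene span, 4263 bases from its 5′ end. Over 32851 RefSeq windows of the same length, 1.34% held the full NR4A site, 14% the half-site, 1.55% the cAMP response element and 32.7% the GC box. A match is a description of letters in a short window.

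The median signal over all non-control spots ran from 137 to 179 in Cy5 on 7 arrays and reached 194 on Nr4a1 replicate 3. In Cy3 it ran from 141.5 to 154. The number of arrays limits the precision. All 14 pan-neuronal marker genes looked at were well above background on all 8 arrays. The delivered gene did not separate the groups: the single Nr4a1 probe stood at -2.06, -2.12, -1.90 and -2.49 on the GFP arrays and at -1.32, -2.49, -1.20 and -2.37 on the Nr4a1 arrays (0.30 ± 0.15, SE, n = 4 pairs, limma adjusted p = 0.192), and where it lies relative to the delivered sequence is not given, so the groups are named by their labels. All GFP arrays were on slide 1, Nr4a1 replicates 1 to 3 on slide 2 and Nr4a1 replicate 4 on slide 3. With each slide holding 1 group, slide and group cannot be told apart by a block within slides, and adding slide to the pair fit, as a random block, left 14 of 25783 probes called in place of 6143.

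Among the NMDA receptor subunits, Grin2a and Grin2c rose and the others were not called. Of the 9 probes, 8 passed the filter on dim signals (Cy5 well above background on at least 4 of 8 arrays), and of these 2 were higher in Nr4a1 arrays, 0 lower and 6 not called at an adjusted p of 0.05 in limma with the pair as a block. Over all 25783 probes tested, 23.8% were called in either direction with 12.2% higher and 11.7% lower, so the members' 25% lies near the background and is no result about the family. The median difference was 0.02 on the log2 scale over the 8 member probes and 0.00 over all probes. Unless a channel is named, values are log2 of the culture signal over the reference signal, and a difference is Nr4a1 minus GFP. Ratios of different probes are on different scales and are not compared as levels.

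**Figure D1:**
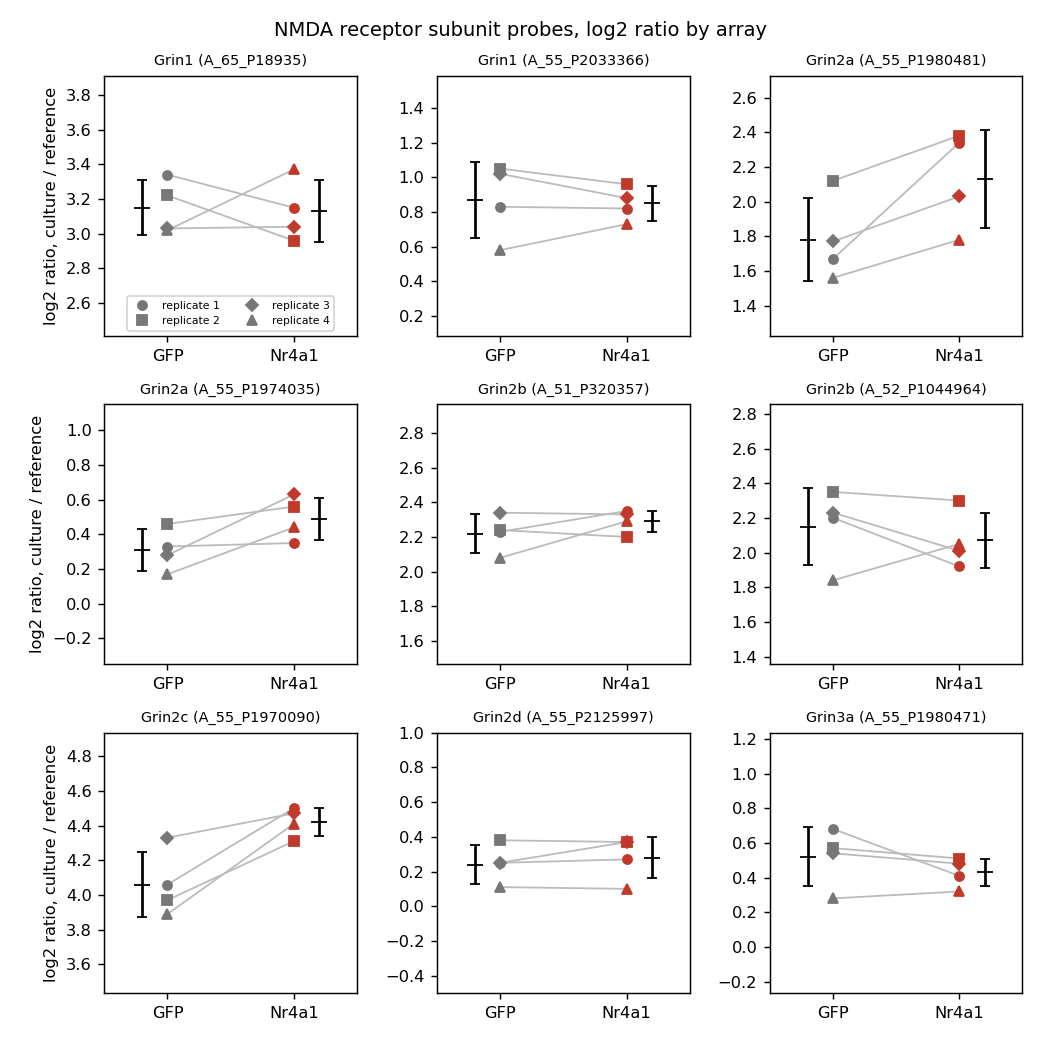
Log2 ratio of culture over reference RNA (vertical axes, each panel with its own range) for the 9 member probes in GFP and Nr4a1 arrays, with 1 marker per replicate, lines joining pairs, and the mean ± SD of 4 arrays beside each group. The Grin2c probe and both Grin2a probes climb in all 4 pairs, while lines of the brighter Grin1 probe cross.

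Grin1 encodes the subunit that every NMDA receptor needs. Its brighter probe (A_65_P18935) gave 3.34, 3.22, 3.03 and 3.02 on GFP replicates 1 to 4 and 3.15, 2.96, 3.04 and 3.37 on Nr4a1 replicates 1 to 4. The groups overlap over nearly their whole range, with the highest and the lowest value both on Nr4a1 arrays. The difference was -0.03 ± 0.09 (SE, n = 4 pairs; limma adjusted p = 0.876), with a 95% interval of -0.23 to 0.18, which in folds is 0.85 to 1.14. The dimmer probe (A_55_P2033366) differed by -0.02 ± 0.07 (adjusted p = 0.844; interval -0.17 to 0.13), with 0.58 to 1.05 on GFP and 0.73 to 0.96 on Nr4a1 arrays. In Cy3 the dimmer probe cleared background on 1 of 8 arrays, so its ratio has a weak denominator. Both probes were lower in replicates 1 and 2 and higher in replicate 4, the single pair of batch 2, where they stood at 0.35 and 0.15.

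Grin2a encodes the GluN2A subunit of mature forebrain synapses. Its brighter probe (A_55_P1980481) gave 1.67, 2.12, 1.77 and 1.56 on GFP replicates 1 to 4 and 2.34, 2.38, 2.03 and 1.78 on Nr4a1 replicates 1 to 4. The groups overlap, GFP replicate 2 lying above Nr4a1 replicates 3 and 4, but each Nr4a1 array stands above its paired GFP array. The rise was 1.27-fold (0.35 ± 0.08, SE; limma adjusted p = 0.0114; 95% interval 0.17 to 0.53), from 1.78 ± 0.24 to 2.13 ± 0.28 (SD, n = 4). By pair it was 0.67, 0.26, 0.25 and 0.21, so replicate 1 moved most, and the difference was 0.24 without that replicate and 0.39 in batch 1 alone. The dimmer Grin2a probe (A_55_P1974035) gave 0.33, 0.46, 0.28 and 0.17 on GFP and 0.35, 0.56, 0.63 and 0.44 on Nr4a1 arrays. It too was higher in all 4 pairs, by 0.18 ± 0.07, and was not called (adjusted p = 0.0863). In Cy3 the brighter probe cleared background on 0 of 8 arrays and the dimmer on 1. The call of the brighter probe was lost without the pair block (adjusted p = 0.103), with slide as a random block (adjusted p = 1.00), with a smaller background offset (adjusted p = 0.124) and in Agilent's own ratio (0.48, adjusted p = 0.266). The sign turned, to -0.13, when no spot was left out of the background correction.

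Grin2b encodes GluN2B, the GluN2 subunit that young hippocampal neurons express first. Its brighter probe (A_51_P320357) gave 2.23, 2.24, 2.34 and 2.08 on GFP replicates 1 to 4 and 2.35, 2.20, 2.33 and 2.29 on Nr4a1 replicates 1 to 4. The values of the groups interleave, apart from a low GFP replicate 4. The difference was 0.07 ± 0.06 (limma adjusted p = 0.487), with an interval of -0.08 to 0.21, or 0.949 to 1.16 in folds. The other probe (A_52_P1044964) ran from 1.84 to 2.35 on GFP and from 1.92 to 2.30 on Nr4a1 arrays and differed by -0.08 ± 0.08 (adjusted p = 0.512). The pair of replicate 4 was the one in which both Grin2b probes were 0.21 higher.

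The change of Grin2a set against that of Grin2b bears on the balance of both subunits. Grin2a minus Grin2b, each by its brighter probe, shifted by 0.56, 0.30, 0.27 and 0.00 in replicates 1 to 4, a mean of 0.28 ± 0.23 (SD, n = 4 pairs). An exact two-sided permutation test flipping signs within pairs gave p = 0.125, the smallest that 4 pairs allow. Permuting all 8 arrays into groups of 4, where an exact p of 0.0286 could have been reached, gave p = 0.171. In the Cy5 channel alone the shift was -0.03.

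Grin2c, the subunit best known from cerebellum, rose by about as much as Grin2a. Its probe (A_55_P1970090) gave 4.06, 3.97, 4.33 and 3.89 on GFP replicates 1 to 4 and 4.50, 4.31, 4.47 and 4.41 on Nr4a1 replicates 1 to 4. The groups overlap by a narrow margin, GFP replicate 3 standing just above Nr4a1 replicate 2. The rise was 1.28-fold (0.36 ± 0.07, SE; limma adjusted p = 0.00541; 95% interval 0.20 to 0.52), from 4.06 ± 0.19 to 4.42 ± 0.08 (SD, n = 4). By pair it was 0.44, 0.34, 0.14 and 0.52, with 0.31 in batch 1 alone. Among all probes called, 61.7% had a smaller difference than Grin2c and 59.3% a smaller one than Grin2a, and the median size of a called difference was 0.32. The Grin2c call was lost with slide as a random block (0.40, adjusted p = 1.00) and with a smaller background offset (0.24, adjusted p = 0.089). Its sign turned in Agilent's own ratio (-0.22, adjusted p = 0.284) and when no spot was left out of the background correction (-0.18).

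Grin2d and Grin3a gave weak signals. The Grin2d probe (A_55_P2125997) was well above background in Cy5 on 2 of 4 GFP arrays and 0 of 4 Nr4a1 arrays, so it was not tested, and its Cy5 signals ran from 53 to 76.5 on GFP and from 58 to 69 on Nr4a1 arrays. These ranges overlap. Its log2 ratios had means of 0.24 ± 0.11 and 0.28 ± 0.12 (SD, n = 4), with 2 pairs higher and 2 lower. The Grin3a probe (A_55_P1980471) passed that mark in Cy5 on 3 of the 4 arrays in either group, and in Cy3 on 1 of all 8. It gave 0.68, 0.57, 0.54 and 0.28 on GFP and 0.41, 0.51, 0.48 and 0.32 on Nr4a1 replicates 1 to 4, which overlap, and the difference was -0.09 ± 0.07 (limma adjusted p = 0.363; interval -0.24 to 0.06). On Nr4a1 replicate 4 this spot read 195 in Cy5 and 188 in Cy3, against 60 to 114 and 48 to 65 on the other arrays, so the 2 channels were raised together there. Without the pair of that array the difference was -0.13. Agilent's own ratio put Grin3a at -0.90 (limma adjusted p = 0.00989), a call the reported ratio did not make.

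Because every array carried the same reference RNA, the Cy3 channel can be read on its own. Cy3 signals alone, normalised between arrays, differed between the groups for 12.3% of all probes, 6.32% being higher and 5.94% lower on Nr4a1 arrays, although the RNA in that channel was of 1 kind. Of the 8 member probes 3 were among those higher in Cy3 and 0 among those lower. The bright Grin2b probe read 169, 169, 163 and 110.5 in Cy3 on GFP replicates 1 to 4 and 232, 223.5, 188.5 and 148 on Nr4a1 replicates 1 to 4, higher in all 4 pairs (0.29 ± 0.05 on the log2 scale, limma adjusted p = 0.033). The dimmer Grin2b probe differed by 0.29 ± 0.05 in Cy3 as well. For Grin2c the Cy3 signals were 70, 79, 70 and 65 against 93.5, 98, 83.5 and 71 (0.21 ± 0.05, limma adjusted p = 0.0425). That probe cleared background in Cy3 on 6 of 8 arrays. What part of these Cy3 differences comes from the slide was not tested, and slide and group cannot be told apart.

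**Figure D2:**
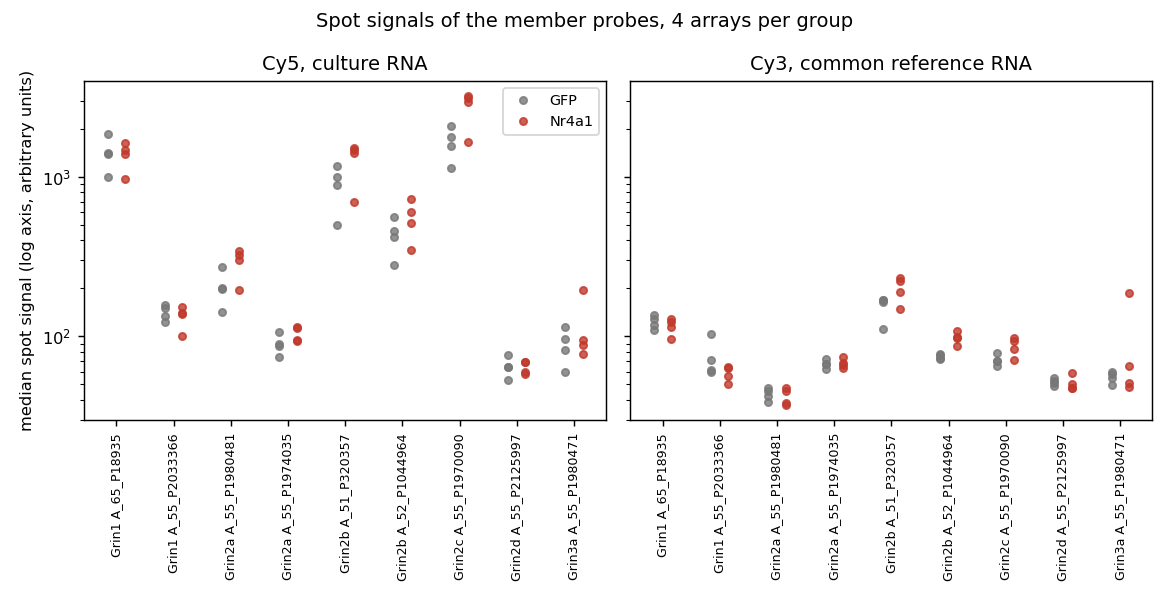
Median spot signal (log axis, scanner units) of the 9 member probes in the Cy5 culture channel and the Cy3 reference channel, 4 GFP and 4 Nr4a1 arrays each. The Cy3 points of Grin2b and Grin2c sit higher on Nr4a1 arrays, and 1 Nr4a1 array stands apart for Grin3a in both channels.

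The Cy5 channel alone, which holds the culture's RNA, gave 3 members higher and 0 lower, against 29.0% of all probes called in either direction, 14.2% higher and 14.8% lower. The Grin2c Cy5 signals were 1572, 2076, 1778.5 and 1144 on GFP and 2939.5, 3131, 3199 and 1653 on Nr4a1 replicates 1 to 4, and its difference was 0.57 ± 0.06 (limma adjusted p = 0.000313). Within each pair the Nr4a1 signal was the higher, and replicate 4 was the lowest array of each group. The bright Grin2b probe, not called as a ratio, was higher by 0.37 ± 0.08 in Cy5 (adjusted p = 0.00894), beside its Cy3 difference of 0.29. For the brighter Grin2a probe the Cy5 signals were 197, 272, 200 and 141.5 on GFP replicates 1 to 4. On Nr4a1 replicates 1 to 4 they were 302, 341, 325 and 194, and the Cy5 difference was 0.34 ± 0.06 (limma adjusted p = 0.00486). In Cy3, where that probe did not clear background, it differed by 0.05 ± 0.07 (adjusted p = 0.661). The difference of the brighter Grin2a probe was thus of about the same size as a ratio and in Cy5. The dimmer Grin2a probe differed by 0.18 as a ratio and by 0.10 ± 0.08 in Cy5 (limma adjusted p = 0.387). In Cy5 it was higher in 3 of 4 pairs. For Grin2b and Grin2c the Cy5 difference exceeded that of the ratio.

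**Figure D3:**
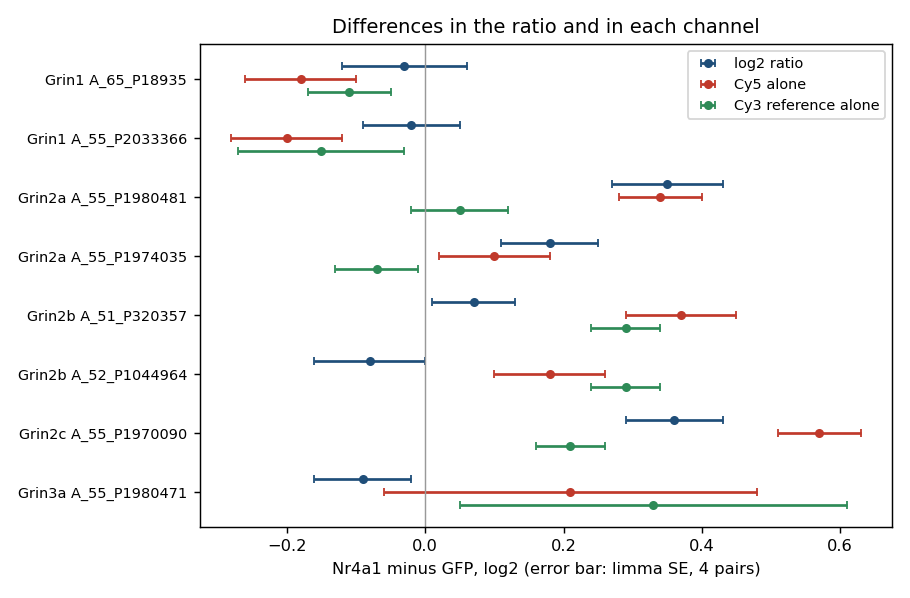
Nr4a1 minus GFP on the log2 scale (horizontal axis) for the 8 tested member probes as a ratio, in Cy5 alone and in Cy3 alone, with limma SE over 4 pairs. The brighter Grin2a probe stands at 0.35 and 0.34 in the ratio and Cy5, and the dimmer at 0.18 and 0.10. Grin2b and Grin2c also differ in Cy3.

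Markers of other cell types in these cultures were read beside Grin2c and Grin2a, against the 27.1% of all 15019 named genes that were called, 14.4% higher and 12.6% lower. Of 10 astrocyte markers tested 3 were higher and 0 lower, with means over the list of 3.37 to 3.51 on GFP and 3.45 to 3.59 on Nr4a1 arrays. The oligodendrocyte lineage list had 5 higher and 2 lower among 11, with means of 0.82 to 0.96 and 1.08 to 1.12. Of 12 interneuron markers 2 were higher and 3 lower. Of 14 pan-neuronal markers 2 were higher and 2 lower, and of 9 glutamatergic neuron markers 0 were higher and 3 lower. Of 7 microglia markers tested 0 were higher and 1 lower, with C1qa, C1qc, Cx3cr1 and P2ry12 of that list too dim to test, and of 9 endothelial and fibroblast markers 1 was higher and 2 lower. Their part in the differences of Grin2a and Grin2c was not tested, and in such bulk RNA fewer cells of a type and less RNA per cell cannot be told apart.

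The transcripts whose log2 ratios ran most like each subunit's over the 8 arrays were sought among 14979 tested named genes with a value on every array. They serve as a description, since arrays of 1 group share a virus and slides. For Grin2a these were Tcf4 (Pearson r = 0.991) and Akain1 (0.978), and for Grin2c Sox1 (0.986) and Hif1a (0.985). For Grin1 they were Car7 (0.957) and Dph6 (0.935), for Grin2b Zfpm1 (0.972) and Krtap5-2 (0.953), and for Grin3a Zmiz2 (0.996) and Pidd1 (0.983). Of these 10 genes Sox1 (0.51 ± 0.07, limma adjusted p = 0.000952) and Tcf4 (0.20 ± 0.06, adjusted p = 0.0422) were called. The Tcf4 call was lost in 11 of the 16 other settings, each fit that left out a replicate among them, and the Sox1 call in 3, with 0.03 when every spot was kept in the background step. Among the subunits themselves Grin2b and Grin2c ran most alike (r = 0.812), and Grin1 ran at -0.297 against Grin2a. Over so few arrays these correlations carry wide error. Those of the 10 genes were also picked as the highest among 14979, a choice that raises r by itself.

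Genes that supply, hold, modify or follow the NMDA receptor were taken in 6 lists of 131 genes, of which 124 were tested by their brightest probe. Of these 19 were higher, 24 lower and 81 not called, which is 34.7% called against 27.1% of all named genes. Their median difference was -0.05 against 0.00. Over all named genes 14.4% were higher and 12.6% lower, and the counts of each list below are to be read beside those shares. No list was tested as a set. With slide as a random block 0 of the 124 genes were called. When no spot was left out of the background correction 3 were, namely Psph, Camk2d and Hras, which are among those named below.

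Among 16 genes of transmitter and co-agonist supply 5 rose and 1 fell, with a median of 0.03. Psph, the last enzyme of serine synthesis, rose by 0.79 ± 0.06 (limma adjusted p = 1.92e-05). Slc7a10, a transporter of D-serine and other small amino acids, rose by 0.40 ± 0.06. Slc17a6, the vesicular glutamate transporter VGLUT2, rose by 0.59 ± 0.07, from 2.77 ± 0.05 to 3.36 ± 0.17 (SD, n = 4), but stood at 0.04 with every spot kept in the background step and at 0.20 in Agilent's own ratio, and was called in neither. Slc7a10 stood at 0.08 with every spot kept, and its call was lost without the pair block (limma adjusted p = 0.0645).

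Of 28 scaffold and trafficking genes 5 fell and 1 rose, with a median of -0.10. Actn2, an actin crosslinker that binds GluN1 and GluN2B, fell by 0.85 ± 0.06 (limma adjusted p = 1.43e-05), from 3.01 ± 0.20 to 2.16 ± 0.13 (SD, n = 4). Dlg4 (PSD-95), the scaffold that holds GluN2 tails at the synapse, fell by 0.26 ± 0.07, the scaffold gene Magi2 by 0.35 ± 0.06 and the exocyst subunit gene Exoc3 by 0.34 ± 0.08. All 4 were lower in all 4 pairs. Of the 16 other settings the call was lost in 2 for Actn2, 6 for Dlg4, 5 for Exoc3 and 4 for Magi2. Dlg4 was not called without replicate 1 (limma adjusted p = 0.0521) or replicate 2 (0.114), and stood at -0.49 with every spot kept. In Cy5 alone Exoc3 stood at -0.15 and Magi2 at -0.22, neither called.

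Kinase and phosphatase genes moved both ways, 5 higher and 6 lower of 26, with a median of -0.03. Ptpn5 (STEP), the tyrosine phosphatase that acts on GluN2B, fell by 0.93 ± 0.08 (limma adjusted p = 2.51e-05), from 6.38 ± 0.08 to 5.44 ± 0.15 (SD, n = 4). Camk2d, a calcium/calmodulin-dependent kinase, rose by 1.15 ± 0.07, the largest rise of this list, and Prkcb, a protein kinase C gene, rose by 0.55 ± 0.08. The tyrosine phosphatase gene Ptpn11 rose by 0.30 ± 0.07. The call was lost in 1 of the 16 other settings for Camk2d, 2 for Ptpn5 and Prkcb, and 3 for Ptpn11.

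Genes of signalling behind the channel's calcium entry fell in 8 cases and rose in 1 among 25, with a median of -0.09. Over all named genes 12.6% were lower and 14.4% higher. The small GTPase gene Hras fell by 0.63 ± 0.07 (limma adjusted p = 0.000119), Nos1ap, which binds neuronal nitric oxide synthase, by 0.41 ± 0.06, the calmodulin gene Calm2 by 0.32 ± 0.06 and the atypical kinase C gene Prkcz by 0.36 ± 0.07. Creb1, which is in this list and in the next, was the member that rose. The call was lost in 1 of the 16 other settings for Hras, 2 for Nos1ap and Prkcz, and 4 for Calm2, which stood at -0.13 in Cy5 alone. With every spot kept Nos1ap stood at -0.76 and Prkcz at -0.62, neither called.

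Transcription and RNA regulators that have been reported at NMDA receptor genes rose in 6 cases and fell in 2 among 20, with a median of 0.07. Cpeb3, a translational regulator, rose by 0.45 ± 0.08 (limma adjusted p = 0.00273), Creb1, the cAMP-responsive factor, by 0.31 ± 0.08 and Sp4, a neuronal GC-box factor, by 0.23 ± 0.06, while the splicing regulator gene Nova2 fell by 0.34 ± 0.07. Of the 16 other settings the call was lost in 5 for Creb1 and Sp4, 3 for Nova2 and 2 for Cpeb3. Creb1 stood at 0.08 and Nova2 at -0.13 in Cy5 alone, neither called, and without replicate 1 neither Creb1 (limma adjusted p = 0.0681) nor Sp4 (0.0764) was called, nor Sp4 without replicate 2 (0.0615). Among 10 other ionotropic glutamate receptor genes 2 were higher and 2 lower, with a median of -0.09. The kainate receptor genes Grik3 (1.21 ± 0.16, limma adjusted p = 0.00058) and Grik1 (0.45 ± 0.08) rose, and the AMPA receptor genes Gria3 (-0.38 ± 0.12, adjusted p = 0.0457) and Gria4 (-0.27 ± 0.06) fell. The Gria3 call was lost in 8 of the 16 other settings, among them without the pair block (limma adjusted p = 0.0682), without replicate 2 (-0.24, adjusted p = 0.167) and without replicate 3 (adjusted p = 0.153), and the Gria4 call in 4. With every spot kept in the background step Grik1 stood at -0.20, Grik3 at 0.49, Gria3 at -0.80 and Gria4 at -0.87, and none of the 4 was called there or in Agilent's own ratio.

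**Figure D4:**
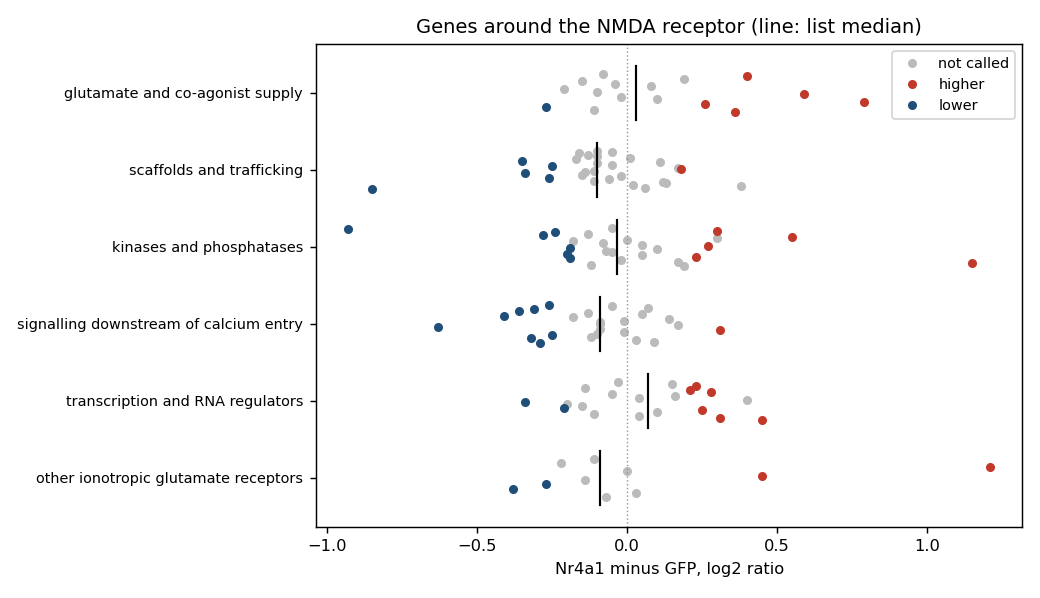
Nr4a1 minus GFP in log2 ratio (horizontal axis) for each tested gene of the 6 lists around the NMDA receptor, coloured by its call in limma at an adjusted p of 0.05, with a black line at each list's median. The largest differences lie in the kinase and phosphatase list, from -0.93 for Ptpn5 to 1.15 for Camk2d, and in Grik3 at 1.21.

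The calls of Grin2a and Grin2c depended in part on the processing. Of the 16 other settings tried, Grin2a was called in 11 and Grin2c in 12, and the signs turned in 1 and 2 of them.

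**Figure D5:**
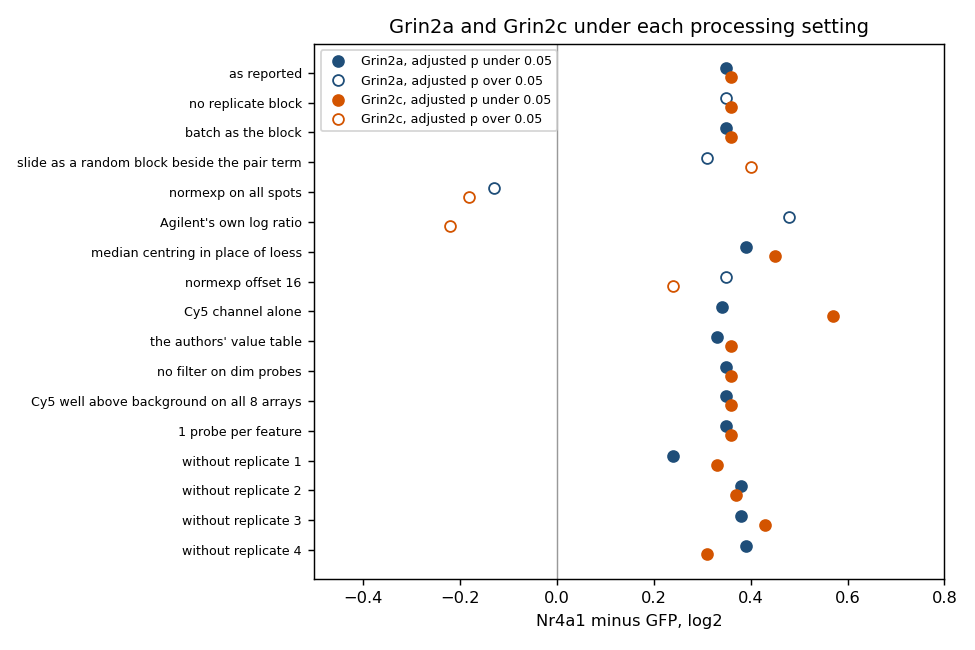
Nr4a1 minus GFP on the log2 scale (horizontal axis) for the probe that stands for Grin2a and for Grin2c, as reported and under the 16 other settings, filled where the adjusted p is under 0.05. Values lie between 0.24 and 0.57 except where every spot entered the background step and, for Grin2c, in Agilent's own ratio.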

How the data were processed

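Per the file headers, each array was read with Agilent Feature Extraction 11.0.1.1, and the authors deposited, for every spot, median signal intensity and local background intensity in each channel, the processed signal intensities, and a log10 ratio of Cy5 over Cy3 made by that software. The authors' deposited value table holds log2 ratios, with no statement of centring or direction, and served only as an alternative. limma and the Agilent software are also named, without versions, in the submitters' processing notes.

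Median signals were corrected with normexp (offset 50), leaving out spots of non-uniform local background (37 on Nr4a1 replicate 2, 0 to 10 elsewhere), a choice made with the data known. Ratios were normalised within arrays by loess with control spots at weight 0, outlier spots were left out and spots of a probe averaged. Probes were named through RefSeq (GRCm38.p6), 26581 of 39429 having a symbol. limma 3.58.1 in R 4.3.3 (two-sided, pair as block) was fitted to 25783 probes with Cy5 well above background on at least 4 arrays and at least 3 values per group, with Benjamini-Hochberg adjustment over all of them. The pair comes from the labels' pair tag. Deviations from group means correlated at -0.121, 0.284, -0.023 and 0.428 within replicates 1 to 4. The probe of highest mean Cy5 stands for a gene. Single channels were quantile-normalised and fitted alike. The Cy3 fit and the half-site motif were added after seeing the data. The fit was tested on simulated log ratios with independent noise for each array. These held no slide effect and no background step, so that test cannot speak to either.

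The members and lists were chosen with earlier results of these data known. Genes named are all members, the 4 of smallest p in each list with any other called by 0.5 or more, the 2 most correlated with each tested member, and Nr4a1; 1 gene that this rule names is not reported here.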

Additional observations from a re-analysis of the deposited data

How the results depend on the processing

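With slide added to the pair fit as a random block, 14 probes were called in all, with 0 subunit probes and 0 of the list genes, and Grin1 stood at 0.08 and 0.03 by its 2 probes, Grin2a at 0.31, Grin2c at 0.40, Car7 at 0.01 and Dph6 at 0.00. With all spots in the background correction, as against leaving out those of non-uniform background, 229 probes, 0 subunit probes and 3 list genes were called, and the values were -0.13 for Grin2a, -0.19 for Grin2b, -0.18 for Grin2c, -0.20 for Grik1, -0.27 for Akain1, -0.10 for Krtap5-2 and 0.07 for Pidd1. Agilent's own ratio called 3265 probes and 18 list genes. There the subunit values were 0.34 for the dimmer Grin1 probe, 0.48 and -0.11 for the Grin2a probes, -0.14 for Grin2b, -0.22 for Grin2c and -0.90 for Grin3a, and Krtap5-2 stood at -0.01. The 2 subunit probes it called were not those reported: they were Grin3a and the dimmer Grin2b probe (-0.56, limma adjusted p = 0.0387). An offset of 16 called 0 subunit probes, with 0.35 for Grin2a and 0.24 for Grin2c. Median centring put Grin1 at 0.01 and 0.00 and Car7 at 0.06, and made 71.5% of all calls rises against 51%. The Cy5 channel alone gave 0.37 for the brighter and 0.18 for the dimmer Grin2b probe, 0.21 for Grin3a, 0.20 for Car7 and a Grin2a minus Grin2b shift of -0.03. Without the replicate block, which the labels' pairing supports, 1 subunit probe was called (Grin2c) and Grin2a, at 0.35, was not. Leaving out 1 replicate gave 4047 to 5314 calls in all, 2 subunit probes each time, and 25 to 39 list genes, the lowest of both counts without replicate 1. Over these fits Grin1 ran from -0.15 to 0.05 and from -0.08 to 0.02, Car7 from -0.06 to 0.00, Dph6 from -0.11 to 0.00 and Krtap5-2 from -0.01 to 0.08. Batch as the block, the authors' value table, both other filters on dim probes and 1 probe per feature called Grin2a and Grin2c. The cause of these changes was not tested. In Cy3, the brighter Grin2a probe cleared background on 0 of 8 arrays and the dimmer Grin1 and Grin2a probes and Grin3a on 1 each, which limits their ratios. The Grin2c probe cleared it on 6 arrays and the dimmer Grin2b probe on 7.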
